A study of Homo sapiens with 12 samples.

Results

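The genes described here are the ribosome biogenesis factors of 2 human cancer cell lines, together with MYC. They were picked by symbol: names that begin with UTP, RRP, NOP or NOL and a digit, the RNA polymerase I subunits POLR1A to POLR1E, and FBL, NCL, NPM1, DKC1, GAR1, NHP2, BOP1, PES1, WDR12 and MYC. This rule found 52 of the 27968 gene symbols in the tables, and no measured value was used in it. The lines were A549, from a lung cancer, and MDA-MB-231, from a cancer of the breast, each grown in medium with 10% serum and with no treatment. The 2D groups were flat cultures taken at about 80% confluence, and the 3D groups were cultures in Matrigel, a basement membrane gel, taken on day 4. There were 3 libraries of total RNA, depleted of ribosomal RNA, in each of the 4 groups. Each line is a single established line, so the comparison of lines is between these lines and not between tumour types. The labels give no day for the flat cultures, so any difference in culture length cannot be told apart from the form of the culture.

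Ribosomes are built in the nucleolus. RNA polymerase I makes the long precursor of the ribosomal RNAs, small nucleolar RNA particles modify its bases and sugars, and large assembly machines cut and fold it into the small and large subunits. MYC is a transcription factor that binds E-box motifs and is known to raise the expression of many of these genes, and growing cancer cells rely on this output. By role, the 52 genes comprised MYC, 5 subunits of RNA polymerase I, 3 proteins of the box C/D particle, 4 of the H/ACA particle, 20 factors of the small subunit processome, 12 of large subunit assembly and 4 nucleolar proteins of several roles. The remaining 3, NOL3, NOL4 and NOL4L, match the rule by name only. NOL3 is an apoptosis repressor and not an assembly factor.

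Since the set holds MYC and many genes described as its targets, their promoters were searched for the canonical E-box. RefSeq promoter windows (GRCh38.p14, 250 bases before to 50 after the start) were found for 43 of the 52 genes. The E-box, CACGTG on either strand, lay in 13 of the 43 windows (30.2%), against 7.4% of all 27305 promoter windows and 9.9% of the 11390 windows of genes tested here. The 4 windows below are those of the genes with an E-box in the printed stretch with the lowest RNA change in A549 3D against 2D, so they were chosen after the values were seen. Each runs 5′ to 3′ on the strand of the gene, from 250 bases before to 10 after the start, with the E-box in capitals. They lie at chr9:92325341-92325600 on the minus strand (NOL8), chr3:51941895-51942154 on the minus strand (RRP9), chrX:129905914-129906173 on the plus strand (UTP14A) and chr6:13615085-13615344 on the plus strand (NOL7).

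NOL8: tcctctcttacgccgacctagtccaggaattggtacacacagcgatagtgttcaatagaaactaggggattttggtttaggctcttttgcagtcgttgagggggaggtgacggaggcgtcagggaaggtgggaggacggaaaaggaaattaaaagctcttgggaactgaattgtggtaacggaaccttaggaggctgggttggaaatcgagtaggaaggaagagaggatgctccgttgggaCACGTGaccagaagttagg
RRP9: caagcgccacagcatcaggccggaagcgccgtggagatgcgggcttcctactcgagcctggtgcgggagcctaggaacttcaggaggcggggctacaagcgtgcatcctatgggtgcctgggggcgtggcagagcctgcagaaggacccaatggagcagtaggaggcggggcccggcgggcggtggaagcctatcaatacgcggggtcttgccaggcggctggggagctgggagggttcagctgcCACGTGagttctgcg
UTP14A: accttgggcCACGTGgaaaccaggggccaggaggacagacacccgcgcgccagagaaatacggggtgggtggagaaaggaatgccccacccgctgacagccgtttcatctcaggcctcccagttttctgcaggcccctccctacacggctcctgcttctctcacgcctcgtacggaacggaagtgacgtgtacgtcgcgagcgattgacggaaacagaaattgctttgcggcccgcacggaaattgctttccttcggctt
NOL7: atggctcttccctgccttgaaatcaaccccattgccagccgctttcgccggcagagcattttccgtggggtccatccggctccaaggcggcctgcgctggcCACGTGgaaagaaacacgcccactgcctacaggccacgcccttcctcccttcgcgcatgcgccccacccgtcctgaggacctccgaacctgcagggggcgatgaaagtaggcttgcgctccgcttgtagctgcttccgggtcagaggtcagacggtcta

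The motif began 9 bases before the start in NOL8, 5 before it in RRP9, 149 before it in NOL7 and 241 before it in UTP14A. Another motif was also frequent: CCGGAAG, the core bound by ETS factors, was in 34.9% of the 43 windows, against 10.7% of all windows and 18.2% of those of tested genes. The E-box variant CACGCG was in 23.3%, against 11.4% and 17.7%. An NRF1-type palindrome and a CGCG palindrome, also searched, were in 7.0% each, against 2.2% and 0.9% of the windows of tested genes. No searched motif contains another, and a match describes letters only.

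The libraries held between 5609327 and 28171901 expected counts, the read estimates that RSEM gives per gene. The labels do not state that libraries of one group were grown apart. The p-values below therefore measure the spread among these libraries, which may be technical. The A549 3D libraries stood apart: their biological coefficient of variation was 0.179, against 0.0368 for flat A549 cultures, and 0.0539 (flat) and 0.0563 (gel) for MDA-MB-231. The main model used a single estimate of spread per gene for all 4 groups. Its p-values for A549 3D therefore draw on the smaller spread of the other groups. Mean fragment length was 133.7 to 141 bases in A549 3D against 176.5 to 187.3 in A549 2D, and 181.4 to 188.1 in MDA-MB-231 3D against 208.3 to 216.8 in MDA-MB-231 2D. Ribosomal RNA genes took 3.53 to 16.5% of counts in A549 3D and 0.311 to 0.483% in A549 2D, and 4.01 to 6.5% in MDA-MB-231 3D and 1.12 to 1.18% in MDA-MB-231 2D. Small RNA genes took 6.14 to 7.47% in A549 3D and 1.55 to 1.62% in A549 2D, and at most 0.0232% in MDA-MB-231. Of the markers of the lines, the 5 epithelial genes summed to between 3744 and 3982 CPM (counts scaled to library size) in flat A549 cultures and to between 10323 and 13509 in gel. In MDA-MB-231 the epithelial sum was 761 to 792 CPM in 2D and 1436 to 1552 in 3D. KRT8, KRT18 and KRT19 rose there in the counts as deposited, while EPCAM and CDH1 fell. A fit described further below removed the trend with GC content and gene length. In it the log2 changes were -0.13 for KRT8, -0.18 for KRT18, 1.32 for KRT19, -1.43 for EPCAM and -2.81 for CDH1. The 3 mesenchymal markers summed to 3670 to 3700 CPM in MDA-MB-231 2D and 5298 to 5738 in 3D. Nearly all of this was VIM and CD44, since SPARC averaged 0.404 CPM in MDA-MB-231 2D and 0.398 in 3D. With that trend removed the MDA-MB-231 log2 changes of VIM and CD44 were 0.06 and 1.05. In A549 SPARC averaged 15.6 CPM in 2D and 16.4 in 3D. The 6 lung alveolar markers summed to 42.0 to 45.9 CPM in A549 2D and 44.5 to 79.0 in 3D, nearly all of it ABCA3 in 2D (41.8 to 45.6 CPM), and NKX2-1 and SFTPA1 were at 0 in 2D. Among markers of other cells, the T cell gene CD3E and the fibroblast gene DCN were at 0 in all 12 libraries. The 7 leukocyte markers, CD68 and CD14 among them, summed to 9.07 to 10.7 CPM in flat A549 cultures against 33.2 to 53.8 in gel, and to 94.7 to 110 CPM in flat MDA-MB-231 cultures against 241 to 271 in gel. The 6 fibroblast markers summed to at most 12.4 CPM, the 5 endothelial markers to at most 17.6 and the 4 erythroid markers to at most 0.118. The part of these differences in the results was not tested. In bulk RNA, fewer cells of a kind and less RNA per cell cannot be told apart.

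Levels can be compared between genes per length, on the TPM scale, which divides by gene length and gives each library the same total. NPM1, a histone and ribosome chaperone of the nucleolus, was the most abundant of the 52 in all 4 groups. In A549 its level was 2063 ± 143 TPM (SD, n = 3) in flat culture and 560 ± 68.0 in gel. In MDA-MB-231 it was 4057 ± 149 in flat culture and 2422 ± 107 in gel. NOP10, a small H/ACA protein, NCL, which binds the nascent precursor, and FBL, the methyltransferase of the box C/D particle, followed among the first 5 in each group. MYC stood at rank 24 of 52 in A549 2D (39.5 ± 0.444 TPM) and 33 in A549 3D (11.9 ± 2.28). In MDA-MB-231 it stood at rank 25 in 2D (70.2 ± 5.79) and 19 in 3D (75.5 ± 1.86). Summed over the 52 genes, the A549 2D libraries held 5622, 5650 and 5369 TPM and the A549 3D libraries 2135, 2204 and 2510, a ratio of means of 0.412. In flat MDA-MB-231 cultures the sums were 10548, 10098 and 10476 TPM and in gel 7277, 7357 and 7439, a ratio of 0.709. In both lines all 3D sums lay below all 2D sums. The 3 most abundant genes, NPM1, NCL and NOP10, made up 40.6 to 59.5% of these sums, and without them the ratios were 0.503 and 0.864. TPM is a share of each library, and the median gene was also lower on this scale in 3D, by values given with the tests.

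Changes between cultures were tested with edgeR's quasi-likelihood test over the 15304 genes that passed a filter on low counts, with Benjamini-Hochberg adjustment over all of them and a threshold of 0.05. Of the 52 genes 51 passed the filter, which is set on group sizes and not on the changes. NOL4, a gene named for its nucleolar protein, did not pass and reached at most 0.38 CPM in any library. Fold changes are log2 of 3D over 2D, on counts scaled by TMM, an edgeR method that equalises most genes between libraries. Values per library below are TMM-scaled CPM. Where values are given with the base composition trend removed, that fit, described further below, removed the trend with gene length as well as GC content.

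In A549, 3D culture held less RNA of most ribosome biogenesis factors and of MYC. Of the 51 genes tested, 38 fell and 5 rose, and their median log2 change was -0.60. Over all 15304 genes, 31.5% fell and 34.1% rose, and the median was 0.03. The falls covered 17 of the 20 small subunit factors, 10 of the 12 large subunit factors, and all 4 nucleolar proteins of several roles. POLR1A, POLR1D, NOP53, NOL3 and NOL4L rose. In MDA-MB-231 the same comparison split evenly, with 20 of 51 higher and 20 lower, against 33.4% higher and 34.2% lower of all genes, and a median of 0.02 against 0.00. There the direction followed the base composition of the transcripts, as described below.

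**Figure D1:**
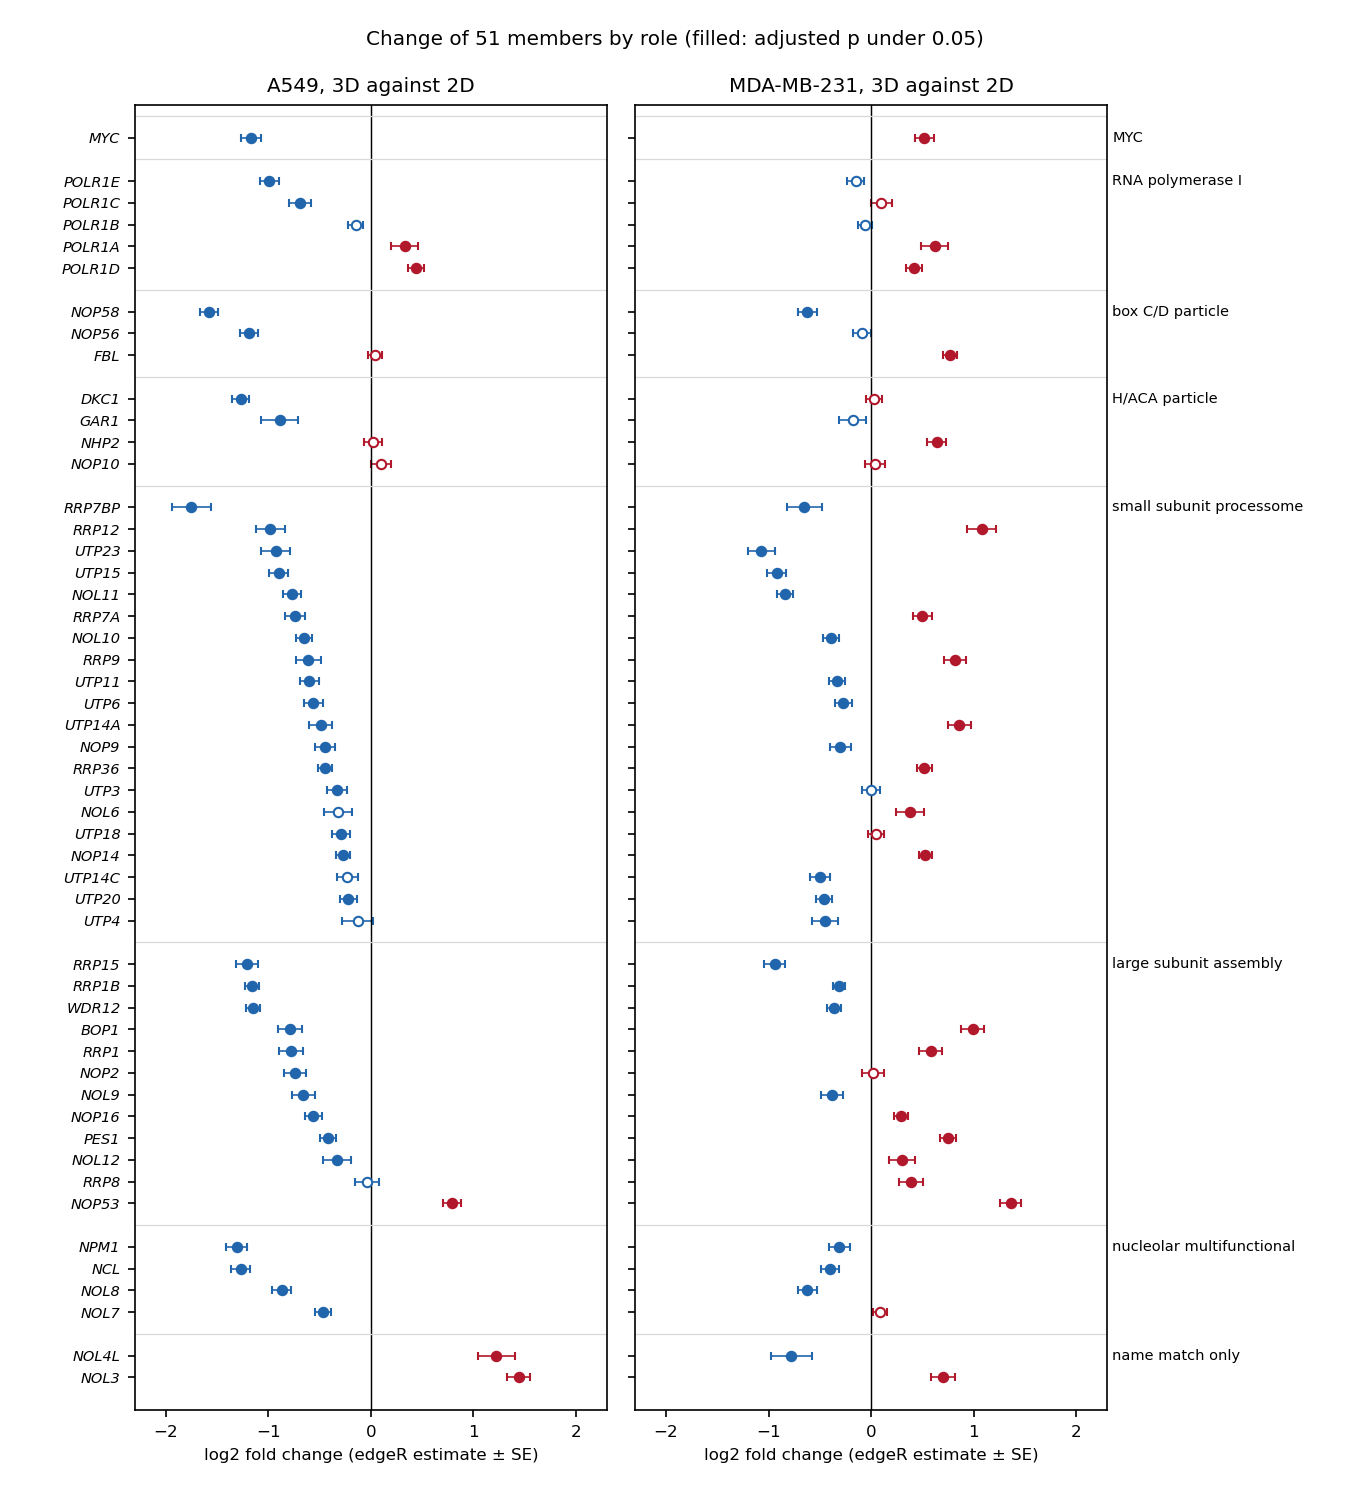
Log2 fold change of 3D over 2D (x axis, edgeR estimate ± SE) for the 51 genes tested, grouped by role and ordered within a role by the A549 change, in A549 (left) and MDA-MB-231 (right); filled points have an adjusted p under 0.05, red is higher and blue lower. In A549 most points lie left of 0 (38 lower, 5 higher), whereas in MDA-MB-231 they lie on both sides (20 and 20).

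MYC, the transcription factor of the set, moved in opposite directions in the 2 lines. Its A549 2D libraries held 136, 134 and 129 CPM and its A549 3D libraries 58.9, 50.2 and 65.9 CPM. All 3 libraries in 3D were below all 3 in 2D, a log2 change of -1.17 ± 0.10 (SE, edgeR adjusted p = 3.84e-08), or 2.25-fold lower. In MDA-MB-231 the 2D libraries held 134, 150 and 127 CPM and the 3D libraries 188, 196 and 205. The 3D libraries all lay above the 2D libraries, by 0.52 ± 0.09 (edgeR adjusted p = 0.000105), or 1.43-fold. The difference between the 2 changes was -1.69 ± 0.13 (edgeR adjusted p = 5.47e-08). On the TPM scale the MDA-MB-231 value was 0.11 and did not pass (limma adjusted p = 0.426).

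RNA polymerase I, which makes the precursor, changed unevenly in A549, with 2 of 5 subunits lower and 2 higher. POLR1E, a peripheral subunit used in initiation, held 65.5, 64.8 and 61.6 CPM in A549 2D against 29.6, 29.7 and 35.8 in 3D. These groups did not overlap, and it fell by 0.99 ± 0.09 on the log2 scale (edgeR adjusted p = 1.23e-07). POLR1C, a subunit shared with RNA polymerase III, held 35.8, 39.4 and 39.4 CPM in A549 2D against 19.9, 21.1 and 27.8 in 3D, a log2 change of -0.69 ± 0.11 (edgeR adjusted p = 4.32e-05). POLR1D, also shared with RNA polymerase III, went the other way in both lines. Its CPM was 44.9, 48.4 and 42.7 in A549 2D against 63.6, 61.9 and 59.0 in 3D, and for MDA-MB-231 it was 52.0, 47.0 and 52.0 in 2D and 71.7, 66.5 and 64.9 in 3D. The rises were 0.44 ± 0.08 in A549 and 0.42 ± 0.08 in MDA-MB-231 (edgeR adjusted p = 0.000213 and 0.000167), while on the TPM scale the A549 value was -0.33. With the base composition trend removed they were 0.17 and 0.27 (edgeR adjusted p = 0.042 and 0.00221). POLR1A, the largest catalytic subunit, was higher by 0.33 ± 0.13 in A549 (edgeR adjusted p = 0.0377), but its 3D libraries (149, 92.8 and 159 CPM) spanned the 2D libraries (107, 108 and 106). With the trend of GC content and gene length removed, POLR1A, with 51.7% GC and a length of 12749 bases, was -0.25 in A549. POLR1B, its partner in the catalytic core, did not pass in either line (-0.15 and -0.06), but with that trend removed it was higher in MDA-MB-231 at 0.28 (edgeR adjusted p = 0.000528).

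Of the box C/D particle, which guides ribose methylation, NOP56 and NOP58 fell in A549 and FBL, the enzyme, did not pass there. NOP58 held 168, 165 and 150 CPM in A549 2D against 47.3, 61.5 and 53.9 in 3D. It was 2.98-fold lower, a log2 change of -1.58 ± 0.09 (edgeR adjusted p = 6.52e-10), the second-lowest estimate among the 51 genes. In MDA-MB-231 it held 131, 121 and 128 CPM in 2D and 84.3, 81.0 and 81.3 in 3D, again without overlap, a change of -0.62 ± 0.09 (edgeR adjusted p = 9.91e-06) that was -0.14 and did not pass with the base composition trend removed. NOP56 held 364, 364 and 336 CPM in A549 2D against 147, 136 and 180 in 3D, a change of -1.19 ± 0.09 (edgeR adjusted p = 1.79e-08). In MDA-MB-231 NOP56 differed by -0.09 and did not pass, and it was -0.61 with that trend removed. FBL read 238, 239 and 234 CPM in A549 2D against 266, 229 and 237 in 3D, and these groups overlapped. In MDA-MB-231 FBL went from 152, 156 and 145 CPM to 254, 256 and 264, a change of 0.77 ± 0.07 (edgeR adjusted p = 1.79e-07) that was -0.05 with that trend removed.

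Of the H/ACA particle, which guides pseudouridylation and also serves telomerase, DKC1 and GAR1 fell in A549. DKC1, the pseudouridine synthase, held 210, 207 and 199 CPM in A549 2D against 80.1, 77.4 and 96.5 in 3D, 2.40-fold lower (log2 -1.27 ± 0.08, edgeR adjusted p = 3.12e-09). In MDA-MB-231 its libraries overlapped, at 216, 213 and 221 CPM in 2D and 218, 226 and 222 in 3D. GAR1, a subunit needed for catalysis, held 9.73, 8.77 and 9.27 CPM in A549 2D against 3.89, 7.62 and 4.65 in 3D (log2 -0.89 ± 0.18, edgeR adjusted p = 0.00049). NOP10 and NHP2 did not pass in A549, at 0.10 ± 0.10 and 0.02 ± 0.09. In MDA-MB-231 NHP2 rose from 81.3, 69.6 and 74.1 CPM to 115, 117 and 119 (log2 0.64 ± 0.09, edgeR adjusted p = 1.39e-05), a value that became -0.33 with the base composition trend removed.

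The small subunit processome, the machine that folds and cuts the precursor on the small subunit side, had 17 of 20 genes lower in A549 and none higher. The other 3, NOL6, UTP14C and UTP4, had estimates of -0.32, -0.23 and -0.13. RRP7BP had the lowest estimate of all, with 7.13, 9.36 and 7.59 CPM in A549 2D against 1.88, 2.15 and 2.68 in 3D (log2 -1.75 ± 0.19, edgeR adjusted p = 9.1e-07). It is a pseudogene copy of RRP7A, so reads shared with RRP7A make its value uncertain. RRP7A fell as well in A549, by 0.74 ± 0.10 on the log2 scale (edgeR adjusted p = 6.3e-06). UTP14C, a retrogene copy of UTP14A, and NPM1, which has many processed copies, carry the same uncertainty.

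RRP12, a factor for maturation and export of pre-ribosomes, showed the widest gap between the lines in the counts as deposited, while with the base composition trend removed NOL4L did (2.20 against -1.54 for RRP12). It held 115, 120 and 126 CPM in A549 2D against 61.6, 42.2 and 74.9 in 3D. It held 34.9, 39.6 and 33.3 in MDA-MB-231 2D against 73.0, 72.8 and 81.9 in 3D. Neither pair of cultures overlapped, and the changes were -0.98 ± 0.14 and 1.08 ± 0.14 (edgeR adjusted p = 1.73e-05 and 5.42e-06). RRP9, a protein of the U3 particle, went from 32.0, 33.9 and 35.6 CPM to 20.6, 16.8 and 26.3 in A549 and from 26.9, 26.0 and 24.7 to 44.8, 43.6 and 48.6 in MDA-MB-231. The changes were -0.61 ± 0.12 and 0.82 ± 0.11 (edgeR adjusted p = 0.000386 and 9.17e-06), but the MDA-MB-231 value was 0.00 with the base composition trend removed. UTP14A, which works with a helicase of the processome, went from 75.3, 72.3 and 65.9 CPM to 42.7, 49.4 and 57.8 in A549 and from 51.5, 49.4 and 46.4 to 77.9, 94.8 and 93.5 in MDA-MB-231. Its changes were -0.49 ± 0.11 and 0.86 ± 0.11 (edgeR adjusted p = 0.000986 and 3.26e-06), and the MDA-MB-231 value was 0.87 with that trend removed.

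Other factors of the processome fell in both lines. UTP23, which acts in early cleavage, went from 37.0, 40.7 and 37.1 CPM to 21.9, 25.4 and 15.9 in A549 and from 62.7, 55.8 and 59.8 to 32.5, 26.7 and 26.0 in MDA-MB-231. Its changes were -0.93 ± 0.14 and -1.07 ± 0.13 (edgeR adjusted p = 2.66e-05 and 2e-06), and the MDA-MB-231 value was -0.07 and did not pass with the base composition trend removed. UTP15 and NOL11, both of the subcomplex that links precursor transcription to processing, changed by -0.90 ± 0.09 and -0.77 ± 0.09 in A549 (edgeR adjusted p = 2.5e-07 and 1.26e-06). In MDA-MB-231 they changed by -0.92 ± 0.09 and -0.84 ± 0.08 (edgeR adjusted p = 1.78e-07 and 4.01e-07). These 3 genes have GC contents of 37.0 to 41.0%, and with the base composition trend removed only NOL11 of them still passed in MDA-MB-231 (-0.26, edgeR adjusted p = 0.000983). RRP36 and UTP18, 2 of the 3 most abundant of the group per length, fell by 0.45 ± 0.07 and 0.29 ± 0.09 on the log2 scale in A549 (edgeR adjusted p = 7.48e-05 and 0.00861). In MDA-MB-231 RRP36 rose by 0.52 ± 0.07 (edgeR adjusted p = 6.35e-06, -0.01 with that trend removed), and UTP18 did not pass at 0.05 ± 0.08.

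Large subunit assembly was lower in A549 for 10 of 12 genes. BOP1, PES1 and WDR12 form one complex, and in MDA-MB-231 they had different directions on the counts as deposited. BOP1 held 137, 139 and 138 CPM in A549 2D against 86.7, 60.0 and 89.5 in 3D. It held 70.2, 74.5 and 63.5 in MDA-MB-231 2D against 145, 128 and 140 in 3D. The groups did not overlap in either line, and the changes were -0.79 ± 0.12 and 0.99 ± 0.11 (edgeR adjusted p = 2.15e-05 and 1.53e-06). PES1 held 117, 119 and 118 CPM in A549 2D against 82.4, 86.7 and 94.5 in 3D. Its flat and gel MDA-MB-231 libraries held 75.9, 78.3 and 66.6 against 126, 121 and 124. It followed BOP1 in the same directions, at -0.42 ± 0.08 and 0.75 ± 0.08 (edgeR adjusted p = 0.000245 and 5.54e-07). WDR12 held 80.3, 74.6 and 76.8 CPM in A549 2D against 33.0, 35.4 and 35.9 in 3D. For MDA-MB-231 the flat values were 63.2, 62.9 and 62.6 and those in gel 47.5, 49.9 and 49.2. It fell in both lines, by 1.15 ± 0.07 and 0.36 ± 0.07 on the log2 scale (edgeR adjusted p = 2.11e-09 and 0.000219). With the base composition trend removed, the MDA-MB-231 values came together at 0.19 for BOP1, 0.17 for PES1 and 0.25 for WDR12, and all 3 passed. They stayed apart on the TPM scale (0.56, 0.32 and -0.77) and with effective length in the fit (0.98, 0.74 and -0.37).

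NOP53, a late factor that brings the RNA exosome to the large subunit, was the only assembly factor of either subunit to rise in A549. It held 74.0, 69.8 and 76.8 CPM in A549 2D against 145, 124 and 113 in 3D. It held 34.4, 37.5 and 35.1 in MDA-MB-231 2D against 87.4, 99.6 and 88.4 in 3D. No libraries of the cultures overlapped, and the rises were 0.79 ± 0.09 and 1.36 ± 0.10 (edgeR adjusted p = 2.63e-06 and 9.73e-09). Its GC content is 64.1%, and with the base composition trend removed the rises were 0.55 and 0.44. On the TPM scale the A549 value was 0.20 and did not pass (limma adjusted p = 0.0711). RRP15, at 35.2% GC the lowest of the set, went from 76.8, 74.9 and 65.2 CPM to 35.2, 32.2 and 27.7 in A549 and from 76.2, 67.3 and 81.5 to 38.5, 41.2 and 37.7 in MDA-MB-231. The changes were -1.21 ± 0.11 and -0.94 ± 0.10 (edgeR adjusted p = 9.36e-08 and 7.64e-07), and the MDA-MB-231 value turned to 0.25 with that trend removed.

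The nucleolar proteins of several roles fell together in A549. NPM1 held 2089, 2108 and 1778 CPM in A549 2D against 719, 936 and 757 in 3D (log2 -1.31 ± 0.10, edgeR adjusted p = 2.47e-08). NCL held 978, 924 and 854 CPM in A549 2D against 339, 412 and 389 in 3D (log2 -1.27 ± 0.09, edgeR adjusted p = 5.75e-09). In MDA-MB-231 both were lower by less, NPM1 from 2284, 2135 and 2252 CPM to 1693, 1785 and 1892 and NCL from 1754, 1568 and 1651 to 1224, 1239 and 1308. Those changes were -0.31 ± 0.10 and -0.40 ± 0.09 (edgeR adjusted p = 0.0122 and 0.00069), and with the base composition trend removed they were 0.02 and -0.30. The test of the difference between the lines gave -1.0 for NPM1 and -0.87 for NCL (edgeR adjusted p = 2.73e-05 and 2.07e-05). NOL8 and NOL7, 2 of the genes whose promoters are printed above, fell by 0.87 ± 0.09 and 0.47 ± 0.08 on the log2 scale in A549 (edgeR adjusted p = 8.1e-07 and 8.41e-05).

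The 2 tested genes that match by name only stood apart from the rest in A549. NOL3 went from 18.0, 17.0 and 17.1 CPM to 47.3, 42.6 and 50.5, the highest rise of the 51 (log2 1.44 ± 0.11, edgeR adjusted p = 2.03e-08). NOL4L went from 8.90, 6.27 and 7.53 CPM to 22.9, 12.5 and 16.8 (log2 1.22 ± 0.18, edgeR adjusted p = 2.79e-05). In MDA-MB-231 NOL3 rose by 0.70 ± 0.12 (edgeR adjusted p = 6.12e-05, -0.20 with the base composition trend removed) and NOL4L fell by 0.78 ± 0.20 (edgeR adjusted p = 0.00243). Leaving out these names, 38 of 49 genes fell and 3 rose in A549.

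**Figure D2:**
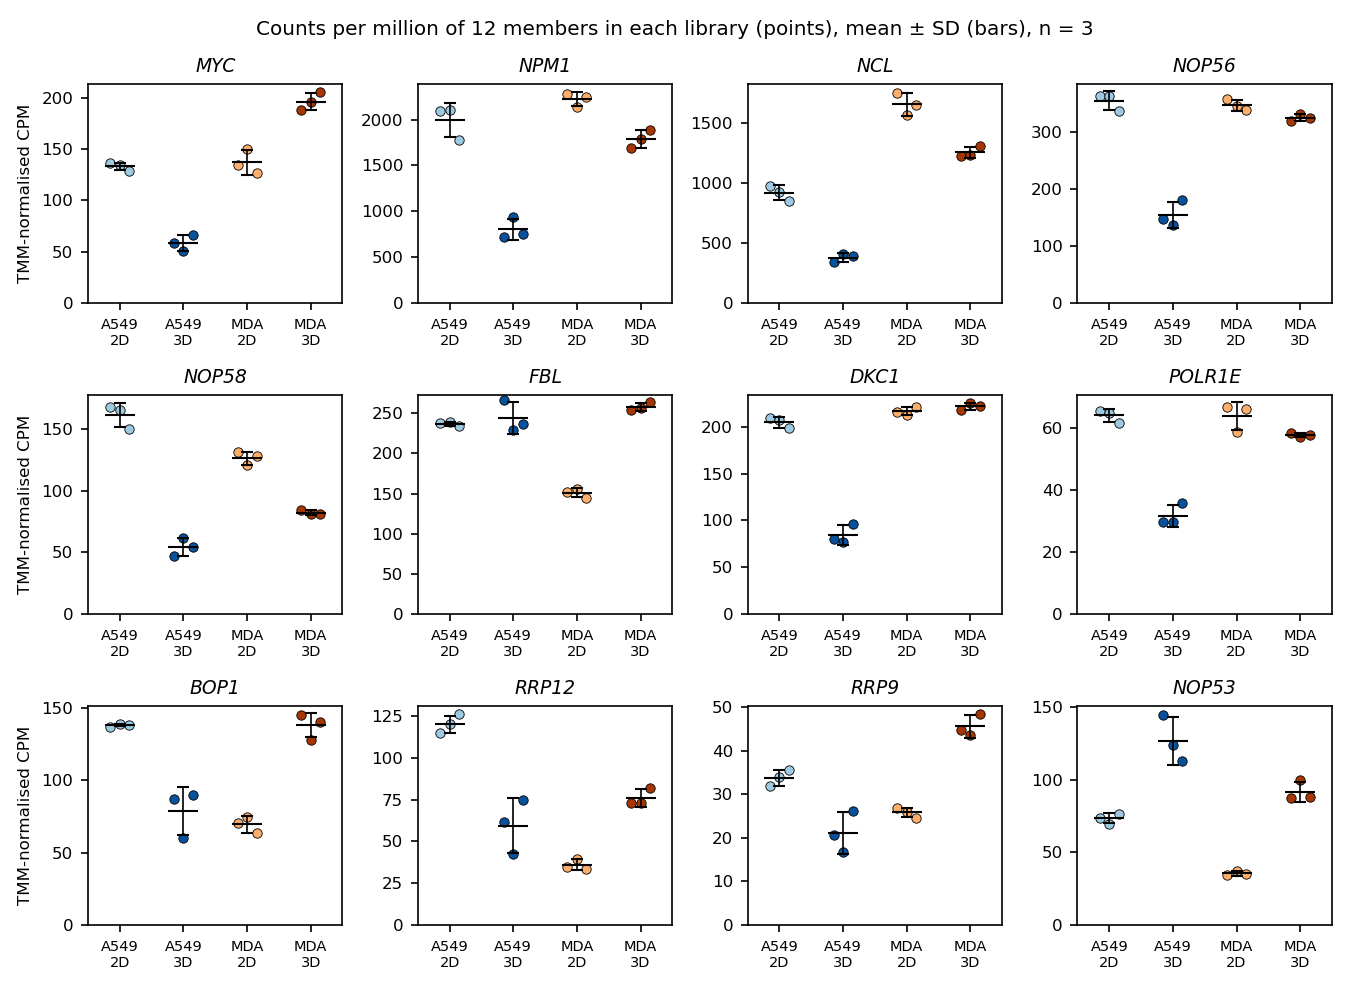
TMM-normalised CPM (y axis, linear from 0) of 12 genes in each of the 12 libraries (points), with the mean and SD of the 3 libraries of a group (bars); MDA stands for MDA-MB-231. MYC falls from 129 to 136 CPM to 50.2 to 65.9 in A549 and rises from 127 to 150 to 188 to 205 in MDA-MB-231, while NOP53 rises in both lines.

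In MDA-MB-231 the change in 3D rose with the GC content of the transcripts. Across all 15066 tested genes with a GC value the Spearman correlation of change and GC content was 0.61, and across the 51 ribosome biogenesis genes and MYC it was 0.72. In A549 the same values were 0.12 and 0.23. These are descriptions across genes, which are not independent replicates, and all points share the same libraries. The 20 genes that rose in MDA-MB-231 had a median GC content of 57.8%, and the 20 that fell 42.6%. Of all genes with 40 to 45% GC, 63.6% fell and 7.96% rose, and 10 of the 11 set members there fell. Of all genes with over 60% GC, 65.7% rose and 5.32% fell, and all 5 set members there rose. In A549, by contrast, the 11 members with 40 to 45% GC had a median change of -0.65 and the 5 with over 60% GC one of -0.61, while all genes of these bands had medians of -0.05 and 0.21.

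**Figure D3:**
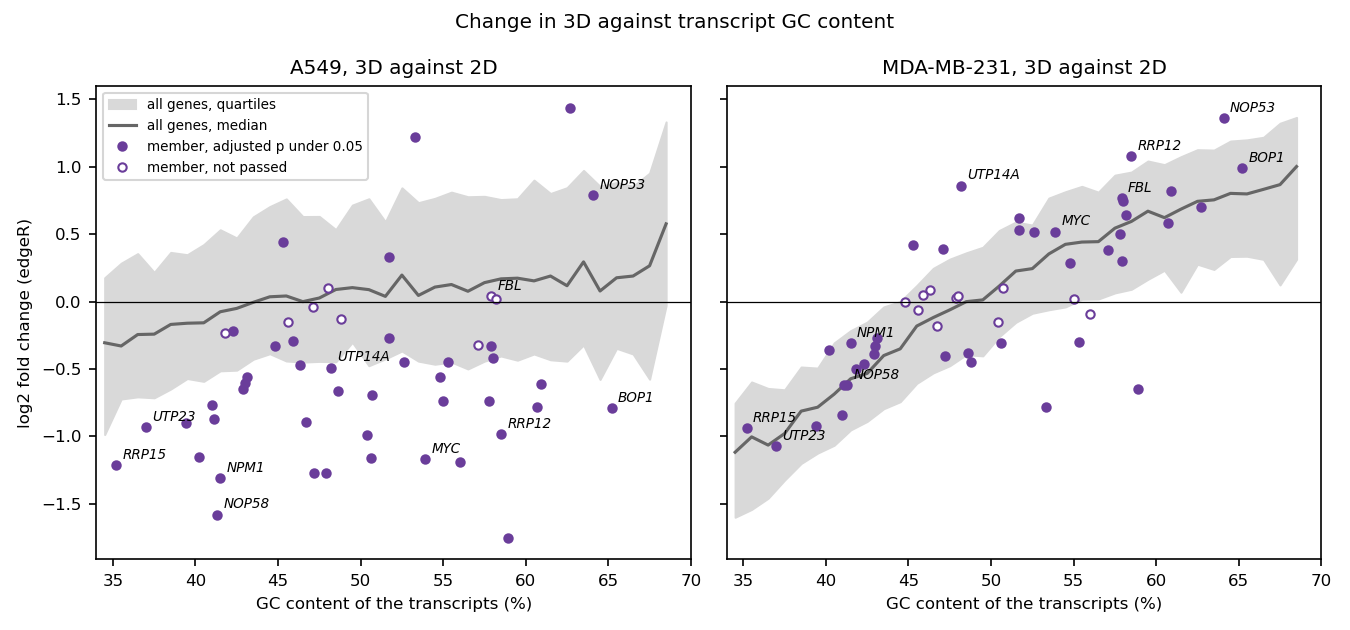
Log2 fold change of 3D over 2D (y axis) against transcript GC content in percent (x axis) in A549 (left) and MDA-MB-231 (right); purple points are the 51 genes (open where the test was not passed), the grey line and band are the median and quartiles of all genes per percentage point of GC. In MDA-MB-231 the points follow the grey line from 35.2% GC (RRP15) to 65.2% (BOP1), whereas in A549 most lie below the band's median at all GC contents.

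The fit was therefore repeated with the trend of each library with GC content and gene length removed, a choice made after the data were seen. In A549, 43 of 51 genes were then lower and 4 higher, with a median of -0.58, against 33.0% lower and 36.0% higher of all genes. Of the 43 genes called as deposited, POLR1A alone changed sign. FBL, NHP2 and NOP10, which had not passed, were then lower in A549 by 0.22, 0.33 and 0.40 on the log2 scale (edgeR adjusted p = 0.00439, 0.000909 and 0.000393). In MDA-MB-231, 14 genes were higher and 16 lower, against 27.3% and 28.7% of all genes, with a median of 0.00. There 16 of the 40 called genes changed sign. MYC stayed higher by 0.31 (edgeR adjusted p = 0.000262), as did RRP12 by 0.64 and UTP14A by 0.87 (edgeR adjusted p = 3.87e-06 and 3.07e-07), and NCL stayed lower at -0.30 (edgeR adjusted p = 0.00186). Fragment length differed between the cultures, as given above, and its part in this trend was not tested. On the TPM scale, where the median of all genes shifted by -0.44 in A549 and -0.29 in MDA-MB-231, limma called 2 higher and 47 lower in A549 (14.4% and 59.3% of all genes) and 7 higher and 31 lower in MDA-MB-231 (17.5% and 50.4%). Relative to these medians none of the called genes changed sign.

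**Figure D4:**
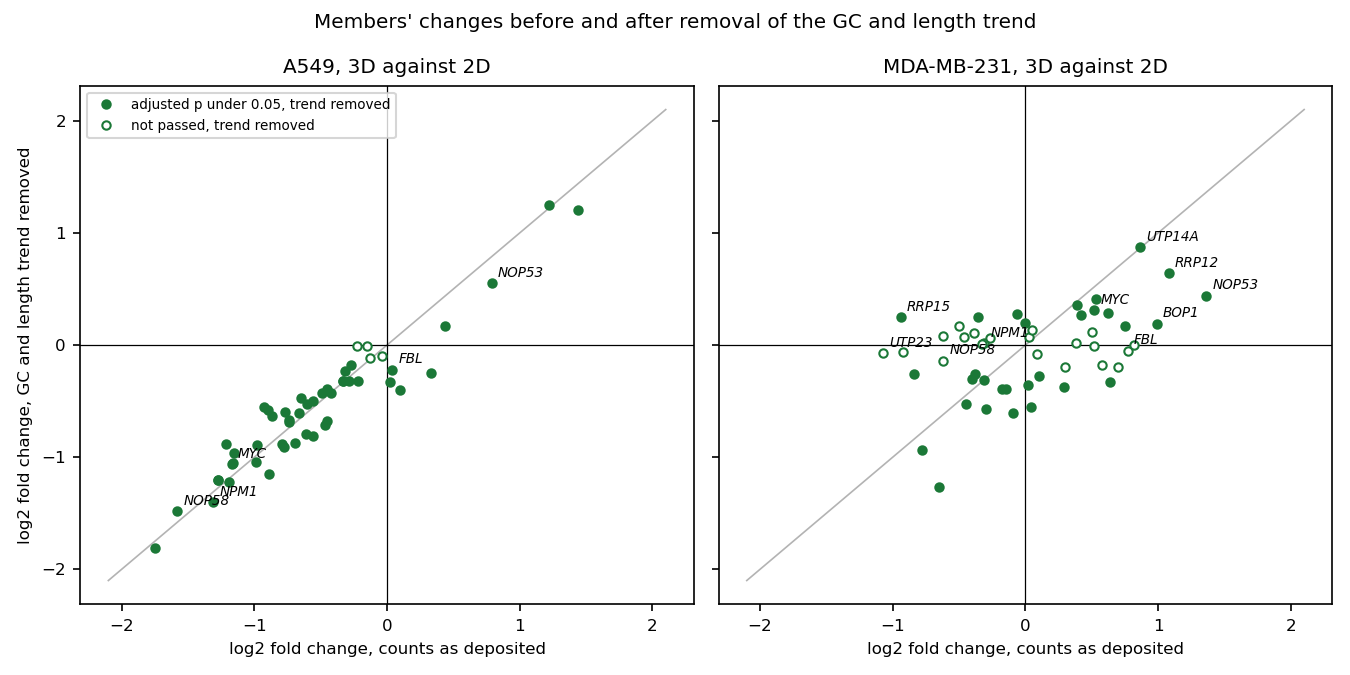
Log2 fold change of the 51 genes with the trend of GC content and gene length removed (y axis) against the value from the counts as deposited (x axis), in A549 (left) and MDA-MB-231 (right); filled points have an adjusted p under 0.05 after removal and the grey line marks equal values. Most A549 points lie closer to the line than those of MDA-MB-231, but some leave it, such as POLR1A (0.33 to -0.25) and NOP10 (0.10 to -0.40). MDA-MB-231 points leave it in both directions, some towards 0 (FBL, 0.77 to -0.05) and others away from it (NOP56, -0.09 to -0.61), with UTP14A (0.87) and RRP12 (0.64) highest.

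The difference between the lines was tested directly, as the A549 change minus the MDA-MB-231 change. It was negative for 32 of the 51 genes and positive for 2, against 26.7% and 29.3% of all genes, with a median of -0.64. With the base composition trend removed, 38 were negative and 2 positive, against 25.9% and 28.6% of all genes, with a median of -0.55. RRP12 (-2.06 ± 0.20), BOP1 (-1.78 ± 0.16), MYC (-1.69 ± 0.13) and RRP9 (-1.43 ± 0.16) had the lowest values (edgeR adjusted p = 4.92e-07, 2.82e-07, 5.47e-08 and 3.09e-06). These were -1.54, -1.07, -1.37 and -0.79 with the trend removed. NOL4L (2.00 ± 0.27) and NOL3 (0.74 ± 0.16) were the positive ones (edgeR adjusted p = 1.43e-05 and 0.000988). By role, the difference was negative for 10 of 12 large subunit factors, 10 of 20 small subunit factors, all 3 box C/D proteins and 3 of 4 H/ACA proteins. With the trend removed these counts were 10 of 12, 15 of 20, 2 of 3 and 2 of 4.

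Combining the calls of both lines, 12 of the 51 genes (23.5%) were lower in A549 and higher in MDA-MB-231, against 7.21% of all genes. They were MYC, BOP1, NOL12, NOP14, NOP16, PES1, RRP1, RRP12, RRP36, RRP7A, RRP9 and UTP14A. Another 17 (33.3%) were lower in both lines, against 16.1% of all genes, among them NPM1, NCL, NOP58, UTP23, UTP15 and RRP15. With the trend removed these counts were 10 (19.6%, against 6.19%) and 14 (27.5%, against 14.3%), but the genes were largely others. Of the 12 genes 6 remained in the first class: BOP1, MYC, NOP14, PES1, RRP12 and UTP14A. Of the 17 genes only NCL, NOL11, NOL9, NOP9, RRP1B and RRP7BP remained in the second class. RRP15 and WDR12, lower in both lines as deposited, were then lower in A549 and higher in MDA-MB-231. In the fit to the counts as deposited, 4 genes, NOL3, NOP53, POLR1A and POLR1D, rose in both lines (7.84%, against 15.3%), and 1, NOL4L, rose in A549 and fell in MDA-MB-231 (1.96%, against 6.97%).

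Between the lines in 2D, 26 of the 51 genes were higher and 11 lower in A549 than in MDA-MB-231, against 42.8% and 38.8% of all genes, with a median of 0.24. RRP12 was 3.35-fold higher in A549 (log2 1.74 ± 0.14, edgeR adjusted p = 1.05e-08), followed by NOL9, a polynucleotide kinase, and NOP9, each 2.19-fold higher (edgeR adjusted p = 7.75e-08 and 2.55e-08). UTP4, of the same subcomplex as UTP15, was lowest, with 40.5, 37.1 and 41.4 CPM in A549 2D against 166, 171 and 171 in MDA-MB-231 2D (log2 -2.09 ± 0.14, edgeR adjusted p = 1.32e-09). GAR1 (-1.77 ± 0.14) and UTP3, which acts early in the processome (-1.48 ± 0.09), came next (edgeR adjusted p = 7.12e-09 and 4.37e-10). MYC did not pass in 2D (-0.04 ± 0.09). In 3D the counts turned round, to 10 higher and 29 lower in A549, against 43.9% and 39.2% of all genes, with a median of -0.49. GAR1 was lowest there (-2.47 ± 0.17), followed by UTP3 (-1.81 ± 0.10) and UTP4 (-1.77 ± 0.15), and NOL4L (1.82 ± 0.20), NOL3 (1.32 ± 0.11) and NOP9 (0.99 ± 0.10) were highest (largest edgeR adjusted p = 3.52e-07). MYC was 3.32-fold lower in A549 3D than in MDA-MB-231 3D (log2 -1.73 ± 0.10, edgeR adjusted p = 1.04e-10). With the base composition trend removed, 24 genes were higher and 12 lower in 2D (43.1% and 40.7% of all genes), and 11 and 31 in 3D (44.2% and 40.5%). On the TPM scale, where the medians of all genes were -0.66 and -0.77, limma called 4 higher and 36 lower in 2D (19.5% and 64.5% of all genes) and 2 and 47 in 3D (21.4% and 66.0%). The sign of 21 called genes in 2D and of 7 in 3D depended on the scale, and that of none did relative to these medians.

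Other genes of the pathway, listed by function, fell in A549 too. Of 35 other small subunit factors 28 fell and 2 rose, and of 42 other large subunit factors 33 fell and 2 rose, the medians being -0.56 and -0.57, against 31.5% lower and 34.1% higher of all genes. Of 15 further subunits and factors of RNA polymerase I 10 fell and 2 rose. CD3EAP, a polymerase subunit, had the lowest value of these (log2 -2.20 ± 0.16, edgeR adjusted p = 7.64e-09), and UBTF, which opens ribosomal DNA for transcription, fell by 1.12 ± 0.08 on the log2 scale (edgeR adjusted p = 1.06e-08). The RNA exosome, which trims the precursor, had 9 of 14 genes lower and 1 higher. After the base composition trend was removed, the A549 counts of lower and higher genes were 29 and 2, 36 and 1, 10 and 1, and 10 and 0 in the same order. In MDA-MB-231 these lists split, with 13 higher and 17 lower of 35, 19 and 19 of 42, 6 and 9 of 15, and 3 and 7 of 14. With the trend removed they held 11 and 9, 11 and 14, 1 and 6, and 1 and 5. Of all genes, 33.4% were higher and 34.2% lower in MDA-MB-231, and 27.3% and 28.7% with the trend removed, so several of these counts are near the share over all genes. In A549 the trend-removed shares were 36.0% higher and 33.0% lower. These lists were drawn up with earlier results of the same data known.

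Targets ascribed to MYC outside the ribosome were mostly lower in A549 3D and mostly higher in MDA-MB-231 3D in the counts as deposited. In A549 19 of 26 fell and 2 rose (median -0.45), and in MDA-MB-231 17 rose and 6 fell (median 0.62). Of all genes 31.5% fell and 34.1% rose in A549, and 34.2% fell and 33.4% rose in MDA-MB-231. ODC1, the enzyme that starts polyamine synthesis, changed by -0.43 ± 0.09 in A549 and 1.13 ± 0.09 in MDA-MB-231 (edgeR adjusted p = 0.000683 and 3.36e-08). TERT, the telomerase enzyme, had a log2 change of -2.74 ± 0.26 in A549 (edgeR adjusted p = 1.7e-07) and did not pass in MDA-MB-231 (-0.14 ± 0.18). With the base composition trend removed the MDA-MB-231 counts were 11 higher and 7 lower with a median of 0.05, and ODC1 was 1.01. As TPM, limma called 10 higher and 10 lower there, against 17.5% and 50.4% of all genes. Of 17 tested genes of the MYC network, its partners and regulators, 7 rose and 4 fell in A549 and 8 rose and 3 fell in MDA-MB-231, and the A549 counts are near the share over all genes. With the base composition trend removed these counts were 6 and 3, and 8 and 2, and as TPM limma called 1 higher and 7 lower of 15 in A549 and 3 higher and 7 lower in MDA-MB-231. In the counts as deposited MXD4, an antagonist of MYC at E-boxes, rose in both lines, 1.80-fold and 2.82-fold (edgeR adjusted p = 1.11e-05 and 2.28e-08). As TPM its A549 value was 0.25 and did not pass (limma adjusted p = 0.116). CIP2A, which protects the MYC protein from degradation, fell in both lines as deposited, by 1.67 ± 0.07 and 1.98 ± 0.07 on the log2 scale (edgeR adjusted p = 4.38e-11 and 1.5e-11). Values with the base composition trend removed are not given here for TERT, MXD4 and CIP2A.

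For the proteins of the ribosome itself the A549 direction varied with the scale, on which all genes shifted too. Of 84 tested genes of cytosolic ribosomal proteins 31 rose and 15 fell in A549 (median 0.11), while in MDA-MB-231 74 rose and 2 fell (median 0.69). Of all genes 34.1% rose and 31.5% fell in A549, and 33.4% rose and 34.2% fell in MDA-MB-231. The 31 rises in A549 are thus near the share over all genes. After removal of the base composition trend the counts were 8 higher and 50 lower in A549 and 43 higher and 17 lower in MDA-MB-231, with medians of -0.22 and 0.18. Of all genes 36.0% were then higher and 33.0% lower in A549, and 27.3% higher and 28.7% lower in MDA-MB-231. As TPM, limma called 1 higher and 73 lower in A549 and 36 higher and 9 lower in MDA-MB-231, with medians of -0.54 and 0.22. On that scale the medians of all genes were -0.44 and -0.29, with 14.4% higher and 59.3% lower in A549 and 17.5% higher and 50.4% lower in MDA-MB-231. Of 78 mitochondrial ribosomal protein genes 24 rose and 22 fell in A549 and 45 rose and 15 fell in MDA-MB-231, the A549 counts being near the 34.1% higher and 31.5% lower of all genes. With the trend removed these were 15 higher and 39 lower, and 19 higher and 17 lower, and as TPM limma called 4 and 62, and 22 and 32.

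Genes with and without the E-box were set side by side, as a description. Of the 13 genes with CACGTG in the promoter window 9 fell and none rose in A549 (median -0.32), and of the 29 tested genes whose window lacks it 20 fell and 5 rose (median -0.56). In MDA-MB-231 6 of the 13 rose and 3 fell, and of the 29 11 rose and 12 fell. Over all genes 31.5% fell and 34.1% rose in A549, and 34.2% fell and 33.4% rose in MDA-MB-231. The median GC content of the transcripts, not of the windows, was 48.8% for genes with the motif and 47.9% for genes without it. The printed RRP9 and UTP14A promoters belong to genes that fell in A549 and rose in MDA-MB-231, and the printed NOL8 promoter to one that fell in both. The MDA-MB-231 values of RRP9 and NOL8 were 0.00 and 0.08 and did not pass once the base composition trend was removed. Box C/D and H/ACA small nucleolar RNAs are carried in introns of NCL, NOP56, NOP58 and DKC1, and 13 such genes were found by symbol. Their total over the 12 libraries was 0 to 27.0 expected counts each, too few for any comparison.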

How the data were processed

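RNA was measured in 12 libraries, 3 per group. The authors deposited expected counts, estimates that split reads shared between genes, made with RSEM on hg19 per the submitters' processing notes. Deposited TPM values and gene lengths stand beside them. Not given in the sources used here are the aligner, the annotation, the RSEM version and the strand setting. Per the labels' protocols, libraries came from a stranded total RNA kit with ribosomal RNA removal.

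Expected counts were rounded, filtered with filterByExpr, which kept 15304 of 27968 genes, and scaled by TMM. A single edgeR model (4.0.16, R 4.3.3) of 4 groups was fitted over the 12 libraries. Adjusted p-values are two-sided, Benjamini-Hochberg, threshold 0.05, over 5 comparisons each adjusted over all genes tested. The SE beside a log2 change was derived from the same test, as the size of the change over the square root of its F statistic. It is therefore not a separate measure of spread. The fit was first tested on simulated data for 15304 genes. The simulation gave every group the same spread per gene and changed few genes. Its rates therefore do not cover the wider spread of the A549 3D libraries or the many changes in these data. False calls made up 2.2% of calls for A549, 9.5% for MDA-MB-231, 8.1% for the difference between the lines, 5.2% between the lines in 2D and 2.1% in 3D, so some exceeded the threshold of 0.05. At a log2 change of 0.5 the share recovered was 30.3% for A549, 50% for MDA-MB-231 and 16.7% for the difference, and at 1 it was 73.1%, 85.1% and 70.1%. TPM was tested with limma (3.58.1) as log2(TPM + 1), with genes of at least 1 TPM in 3 libraries. GC content is the mean over transcripts (GENCODE v29, matched by accession or symbol). There were 0 columns from other series, and no replicates agreed within sampling noise.

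Same-numbered libraries of different groups did not deviate together (correlations from -0.136 to 0.0972 over 18 pairs), so no pairing by number was seen. With 3 libraries per group, this cannot exclude a shared day or batch. Alternatives were other scalings (RLE, upper quartile), DESeq2 (1.42.0), other filters, the TPM scale, effective length, no small or ribosomal RNA genes, only the libraries compared, a replicate block, a 1.5-fold threshold and leaving out each library. Named genes were MYC, the 3 most abundant of each role, and the 4 largest changes per direction in each line and in the difference (3 between lines), with up to 4 per pathway list. Others named as examples were chosen after their values were seen. Members and lists were chosen with earlier results of these data known. Fragment length was taken from length minus effective length. With the strand setting unknown, reads of a gene and of an antisense gene over it cannot be told apart. The sum over genes is a description, given without the permutation test first planned for it.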

Additional observations from a re-analysis of the deposited data

Results flagged for a closer look

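For 6 genes the 3D change differed between the lines by the edgeR interaction test and lay at an extreme of the set, given as the A549 change minus the MDA-MB-231 change on the log2 scale. The value was -2.06 for RRP12, -1.78 for BOP1, -1.69 for MYC and -1.43 for RRP9, each lower in 3D in A549 and higher in 3D in MDA-MB-231. It was 2.00 for NOL4L, which was higher in A549 3D and lower in MDA-MB-231 3D, and 0.74 for NOL3, which was higher in 3D in both lines. With the trend of GC content and gene length removed, the values were -1.54, -1.07, -1.37, -0.79, 2.20 and 1.40. The directions within each line are those of the counts as deposited. In MDA-MB-231 RRP9 and NOL3 were 0.00 and -0.20 with that trend removed and did not pass. RRP12, BOP1, MYC and NOL4L kept their direction there and passed.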

How the results depend on the processing

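A549 3D libraries limit the precision most, with the shallowest library at 5609327 expected counts. Under the other scalings, DESeq2 and other filters, no count of called genes moved by over 1.5 times. A threshold of 1.5-fold (glmTreat) left 3 higher and 17 lower genes in A549, 7 and 4 in MDA-MB-231, 1 and 20 for the difference between the lines, 5 and 7 between the lines in 2D, and 4 higher in 3D. Shares over all genes are not given for this threshold, the replicate block or the fits without 1 library. Their counts show only how those of the main fit moved. On the TPM scale, limma with a pseudocount of 1 called 2 higher in A549, 7 higher and 31 lower in MDA-MB-231, 4 and 36 between the lines in 2D, and 2 and 47 in 3D. With a pseudocount of 0.1 it called 2, 7 and 31, 3 and 36, and 2 and 47. With only the libraries compared, 17 were lower in A549 in 2D. For A549 3D against 2D, that fit gave NOP58 an edgeR adjusted p of 6.68e-06 in place of 6.52e-10. NOL12, POLR1A, UTP3 and UTP20, called in the main fit, then did not pass in A549 (edgeR adjusted p = 0.0671, 0.0832, 0.0796 and 0.063). Leaving out 1 library gave 4 to 5 higher and 36 to 40 lower in A549, 18 to 20 and 19 to 20 in MDA-MB-231, 2 to 4 and 30 to 36 for the difference (4 positive without A549 3D replicate 2), 25 to 26 and 11 to 12 in 2D, and 9 to 10 and 29 to 32 in 3D. The summed TPM ratio ranged from 0.391 to 0.425 in A549 and from 0.700 to 0.715 in MDA-MB-231, and was 0.503 and 0.864 without the 3 most abundant genes.

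The replicate block gave 4 higher and 37 lower in A549, 19 and 20 in MDA-MB-231, 2 and 30 for the difference, 25 and 11 in 2D, and 9 and 30 in 3D. The UTP3 difference between the lines (edgeR adjusted p = 0.0483) no longer passed with the block (0.0623), nor under the other scalings, DESeq2, the other filters, effective length or removal of small and ribosomal RNA genes (0.0515 to 0.0733). It also failed with the 1.5-fold threshold, without A549 2D replicate 1 (0.153), without A549 3D replicate 3 (0.152) and without any one MDA-MB-231 library (0.0676 to 0.0944).

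The MDA-MB-231 median of 0.02 had no stable sign. It was -0.01 with no filter, -0.44 on both TPM scales, -0.03 with effective length, -0.0004 without small and ribosomal RNA genes, and -0.01 without MDA-MB-231 2D replicate 2 or 3. The median between the lines in 2D was -0.52 and -0.56 on the TPM scales. The cause of these shifts was not tested.

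Named genes also turned. On the TPM scales (equal with both pseudocounts unless 2 values are given) the A549 change was -0.56 for FBL, -0.61 and -0.62 for NHP2, -0.61 for NOP10 and -0.33 for POLR1D. The MDA-MB-231 change was -0.38 for DKC1, -0.28 for NOL7, -0.48 for NOP10, -0.44 for POLR1C, -0.37 for UTP18 and -0.42 for UTP3. The POLR1D difference was -0.43 and -0.44, and -0.29 with effective length. With the GC and length trend removed, A549 gave -0.22 for FBL, -0.33 for NHP2 and -0.40 for NOP10. MDA-MB-231 gave -0.05 for FBL, -0.33 for NHP2, -0.20 for NOL3, -0.55 for NOP10, 0.02 for NPM1, -0.28 for POLR1C, 0.25 for RRP15 and -0.01 for RRP36. The difference was -0.35 for NOL11, 0.11 for NOP53, -0.52 for UTP15 and -0.48 for UTP23.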
